A study of Mus musculus with 2 samples.

Results

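The 45 genes described here encode lysosomal enzymes, proteins of the lysosomal membrane and parts of the vacuolar proton pump, the V-ATPase. They were chosen by symbol from a list of gene names, by a rule that names no measured value but was drawn up with earlier results of these data known, from the 55536 genes of the annotation, of which 22015 are nuclear protein-coding genes. By role they comprise 11 genes for lipid breakdown and cholesterol release, 10 for the breakdown of glycans, glycogen and glycosaminoglycans, 5 for proteases, progranulin and acid phosphatases, 6 for membrane proteins, 5 for subunits of the V0 sector, 6 for subunits of the V1 sector and 2 for accessory proteins of the pump.

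The RNA came from macrophages grown from bone marrow of C57BL/6J mice and given lipid A at 100 ng/ml for 50 minutes. Lipid A, the lipid end of lipopolysaccharide from bacteria, is the agonist sensed by TLR4. The 2 libraries are biological replicates 1 and 2 of this 1 group, made from ribosomal RNA-depleted total RNA of 500 ng and 1 µg, and they carry the same donor label, with sex and age not collected. The description names the nucleoplasm as the fraction, and the other labels name the nucleus. Untreated cells were not analysed here. No value below is therefore a response to lipid A, and no test between conditions was possible. The labels call the libraries separate biological replicates without naming separate cultures or animals, so the spread between them may be in part technical. As the cells were lysed in bulk, a low level cannot be told apart from expression in few cells.

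Lysosomes degrade material that reaches them by endocytosis, phagocytosis and autophagy. Their hydrolases work in acid, which the V-ATPase provides: its V1 sector in the cytosol hydrolyses ATP, and its V0 sector in the membrane carries the protons. Macrophages are rich in lysosomes. Many lysosomal genes are targets of TFEB, TFE3 and MITF, basic helix-loop-helix factors that bind CACGTG, the E-box, often with T before it or A after it, and in the case of MITF also the M-box, TCATGTGA.

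The level of a gene is given in TPM, transcripts per 1000000 transcripts, as deposited for each library. TPM is a level per length of transcript, so genes can be compared within a library. All 45 genes reached 1 TPM in both libraries, whereas 38.7% of nuclear protein-coding genes did. Their median was 71.6 TPM in replicate 1 and 53.7 TPM in replicate 2 (62.6 ± 12.7, mean ± SD, n = 2), beside 7.82 and 5.12 TPM for the 9158 nuclear protein-coding genes with a mean of at least 1 TPM. In both libraries 38 of the 45 genes reached 10 TPM and 15 reached 100 TPM, beside 2914 and 276 of the 22015 nuclear protein-coding genes. The lowest count of any of them was 65 in replicate 1 and 250 in replicate 2. Together the 45 genes held 2.82% and 3.51% of the expected counts in gene rows, which totalled 10342882 and 20495545.

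Promoter sequences are shown because the E-box and the M-box are the elements by which this gene class is best known. RefSeq promoter windows of build GRCm38.p6, each with 250 bases before and 50 after an annotated start, were matched by symbol for 38 of the 45 genes, in 45 windows. In 32 of the 45 windows the first 40 bases after the start were found in an annotated transcript of the gene. Several printed windows, among them those of Acp5, Lgmn, Cln3, Atp6v1a, Atp6v0c, Grn and Gla, belong to starts that lie inside the gene as annotated. Some printed matches, such as those of Atp6v1a and Atp6v0c, therefore lie within the annotated gene. Distances are from the RefSeq start of the window and not from the gene's outermost start. Both strands were searched. CACGTG was present in 12 of the 45 windows (26.7%), in 1 window of each of 12 genes, and in 7.15% of all 32851 windows. In the same 12 windows CACGTG had a T before it or an A after it, the 7-letter form TCACGTG that 3.77% of all windows hold. GTCACGTG was present in 10 of 45 windows beside 2.25% of all windows. The palindrome TCACGTGA, with both flanking letters, was found in 5 of 45 windows, those of Atp6v0d1, Atp6v1a, Cln3, Gla and Mcoln1, beside 0.974% of all windows. The longer forms contain the shorter ones, so these counts are nested. The matches are letters in a window and not measured binding sites.

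One match of each gene is printed below on the strand of the gene, the match nearest to the start where there were several, with CACGTG and an adjoining T or A in capitals. The first 3 genes encode pump subunits, Mcoln1 a membrane channel and the other 6 soluble enzymes.
Atp6v0b, chr4:117887330-117887359, minus strand: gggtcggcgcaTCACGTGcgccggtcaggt
Atp6v0d1, chr8:105566050-105566079, minus strand: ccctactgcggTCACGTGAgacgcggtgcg
Atp6v1a, chr16:44139373-44139402, minus strand: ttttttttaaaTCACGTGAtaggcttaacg
Gaa, chr11:119267811-119267840, plus strand: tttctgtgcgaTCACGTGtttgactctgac
Gla, chrX:134601182-134601211, minus strand: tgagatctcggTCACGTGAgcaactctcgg
Glb1, chr9:114401018-114401047, plus strand: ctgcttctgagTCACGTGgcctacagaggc
Lgmn, chr12:102439124-102439153, minus strand: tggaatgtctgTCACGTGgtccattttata
Mcoln1, chr8:3500462-3500491, plus strand: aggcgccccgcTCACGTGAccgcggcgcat
Naglu, chr11:101070009-101070038, plus strand: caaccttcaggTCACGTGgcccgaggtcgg
Sgsh, chr11:119355522-119355551, minus strand: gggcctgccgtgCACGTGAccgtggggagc

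Lamp1 and Cln3 are shown over longer stretches, because the first holds 4 matches within 75 bases and the second is the gene with the most annotated isoforms, 19. The Cln3 window belongs to the inner of its 2 RefSeq starts. Capitals again mark CACGTG with an adjoining T or A.
Lamp1, chr8:13159088-13159162, plus strand: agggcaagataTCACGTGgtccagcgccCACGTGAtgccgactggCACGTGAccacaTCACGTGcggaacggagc
Cln3, chr7:126583237-126583486, minus strand: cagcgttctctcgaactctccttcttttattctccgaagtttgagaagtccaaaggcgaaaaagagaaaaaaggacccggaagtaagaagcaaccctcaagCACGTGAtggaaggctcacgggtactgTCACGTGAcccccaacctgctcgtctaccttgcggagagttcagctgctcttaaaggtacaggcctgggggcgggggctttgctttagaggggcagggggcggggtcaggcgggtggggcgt

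In all, the 12 genes held 19 such matches, and in 8 of the 12 the nearest lay within 100 bases of the start. That of Atp6v0d1 spanned the start itself. The 12 genes were not the most abundant of the set: their median was 46.2 TPM in replicate 1 and 31.4 TPM in replicate 2, beside 112 and 63.8 TPM for the 26 genes whose windows lacked the letters. Their mean levels ran from 10.3 TPM for Sgsh to 452 TPM for Lgmn. The M-box TCATGTGA was present in 6 of the 45 windows (13.3%), beside 0.986% of all windows. Those windows belong to Grn, Tpp1, Ppt1, Gla, Atp6v0c and Acp5, and 1 match of each is printed with the 8 letters, in either orientation, in capitals.
Grn, chr11:102430285-102430314, plus strand: tgattctctaaTCACATGAtccctagaaat
Tpp1, chr7:105752213-105752242, minus strand: ccagaccatgcTCATGTGActtatcacatg
Ppt1, chr4:122836229-122836258, plus strand: agtccccgcggTCATGTGAttgctaagatg
Gla, chrX:134601198-134601227, minus strand: gagcatctacgTCATGTGAgatctcggtca
Atp6v0c, chr17:24169449-24169478, minus strand: gcggggacagaTCATGTGAcgcgagcgcgg
Acp5, chr9:22130671-22130700, minus strand: aagtccagtgcTCACATGAcccaaggggag

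Gla was the 1 gene with both elements, its M-box lying between 2 E-boxes. Of the elements linked to TLR4 signalling, the AP-1 site TGAGTCA was found in 4 of 45 windows, those of Glb1, Gpnmb, Neu1 and Psap, beside 5.20% of all windows. GGACTTTCC, searched as 1 exact form of the NF-kB site, was found in 0 of 45, beside 0.344% of all windows. At that share 0 is the likely count in 45 windows, so it does not show that NF-kB sites are absent. Windows of lysosomal and pathway genes outside the 45 held CACGTG in 22.5% of 80, TCACGTG in 20.0% and TCATGTGA in 6.25%.

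**Figure D1:**
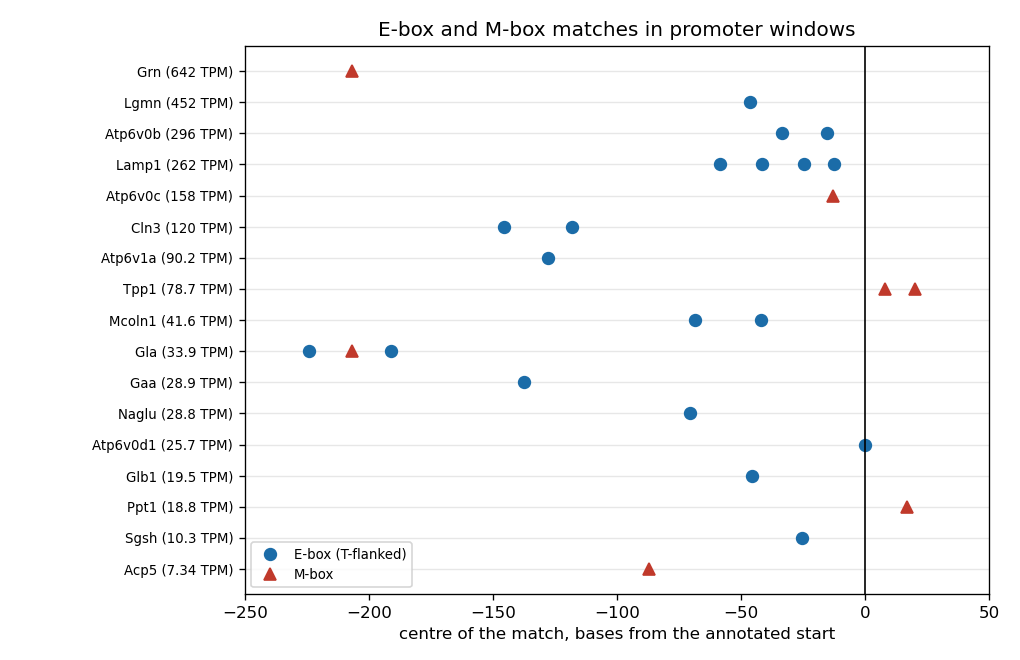
Positions of the E-box (CACGTG with an adjoining T or A, circles) and M-box (TCATGTGA, triangles) matches in the promoter windows of 17 genes, as bases from the annotated start to the centre of the match (x axis); genes are ordered by mean TPM (in brackets), with the highest at the top. Matches of Lamp1, Atp6v0b, Lgmn, Glb1 and Sgsh lie within 100 bases before the start, those of Gla farther out, and the M-boxes of Tpp1 and Ppt1 after it.

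Among the genes for lipid breakdown, Psap stood far above the rest. It encodes prosaposin, the precursor of the saposins that present sphingolipids to their hydrolases. Psap had 3804 TPM in the first library and 3273 TPM in the second, from 101968 and 268523 expected counts, and was the most abundant nuclear protein-coding gene by mean TPM. Hexa, the alpha subunit of beta-hexosaminidase, which removes a sugar from GM2 ganglioside, had 181 and 147 TPM. Lipa, the acid lipase that frees cholesterol from its esters, had 174 and 118 TPM. The ranges of Hexa and Lipa over the libraries overlapped, and both lay far below that of Psap.

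Npc2 and Npc1, the soluble and the membrane protein that hand cholesterol out of the lysosome, had means of 119 and 63.1 TPM. Asah1, acid ceramidase, had a mean of 62.9 TPM, within the spread of Npc1. Pla2g15, a lysosomal phospholipase, had 35.3 TPM, Gla, alpha-galactosidase A, which degrades globotriaosylceramide, 33.9 TPM, and Glb1, beta-galactosidase, 19.5 TPM. At the lower end Ppt1, the thioesterase that takes palmitate off proteins, had 23.2 TPM in replicate 1 and 14.4 TPM in replicate 2. Smpd1, acid sphingomyelinase, was the lowest of all 45 genes, with 3.90 and 3.31 TPM. Its 96 expected counts in replicate 1 have an exact Poisson interval of 77.8 to 117 at 95%, which covers counting error only, as it does for every such interval here.

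The genes for sugar breakdown were the least abundant role, with a median of 18.5 TPM in replicate 1 and 17.0 TPM in replicate 2. Man2b1, lysosomal alpha-mannosidase, led them with 143 and 111 TPM. Gusb, beta-glucuronidase, had 73.9 and 65.6 TPM, and Gaa, the acid alpha-glucosidase that degrades glycogen, had 31.3 and 26.5 TPM. These 3 levels were separate in both libraries. Naglu and Sgsh, which act in heparan sulfate breakdown, had means of 28.8 and 10.3 TPM, the first within the spread of Gaa. Neu1, the lysosomal sialidase, had a mean of 19.8 TPM, Galns, a keratan sulfate sulfatase, 15.7 TPM, Manba, beta-mannosidase, 11.7 TPM, and Fuca1, alpha-fucosidase, 10.5 TPM. Sgsh, the second lowest, had 11.4 and 9.29 TPM, and Arsb, arylsulfatase B, had 5.67 and 3.32 TPM.

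Of the 5 genes for proteases, progranulin and acid phosphatases, Grn and Lgmn were abundant and Acp5 was not. Grn encodes progranulin, a secreted protein that is cut into granulins in the lysosome, and it had 730 TPM in replicate 1 and 554 TPM in replicate 2. Lgmn, legumain, a protease that cuts after asparagine and processes cathepsins, had 495 and 408 TPM. Tpp1, a tripeptidyl peptidase, had 101 and 56.7 TPM. Acp2, the lysosomal acid phosphatase, had 63.0 and 53.7 TPM. Acp5, the tartrate-resistant acid phosphatase, had 5.11 TPM in replicate 1 and 9.58 TPM in replicate 2, so it was higher in the second library, unlike the other 4.

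Of the membrane proteins, Gpnmb had 2886 TPM in replicate 1 and 2078 TPM in replicate 2, rank 3 among all nuclear protein-coding genes by mean TPM. GPNMB is a glycoprotein of lysosomes and melanosomes. Psap and Gpnmb together held 58.3% of the summed TPM of the 45 genes in replicate 1 and 59.6% in replicate 2. Lamp1, a main glycoprotein of the lysosomal membrane, had 276 and 248 TPM, and Cd63, a tetraspanin of late endosomes and lysosomes, had 188 and 173 TPM. Lamp2, the other main membrane glycoprotein, had a mean of 148 TPM, and the 2 libraries differed so much (188 and 109 TPM) that its place against Cd63 is not resolved. Cln3, the membrane protein lost in juvenile Batten disease, had 125 and 115 TPM. Mcoln1, the calcium-permeable channel TRPML1, was the lowest membrane protein, with 51.4 and 31.8 TPM.

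**Figure D2:**
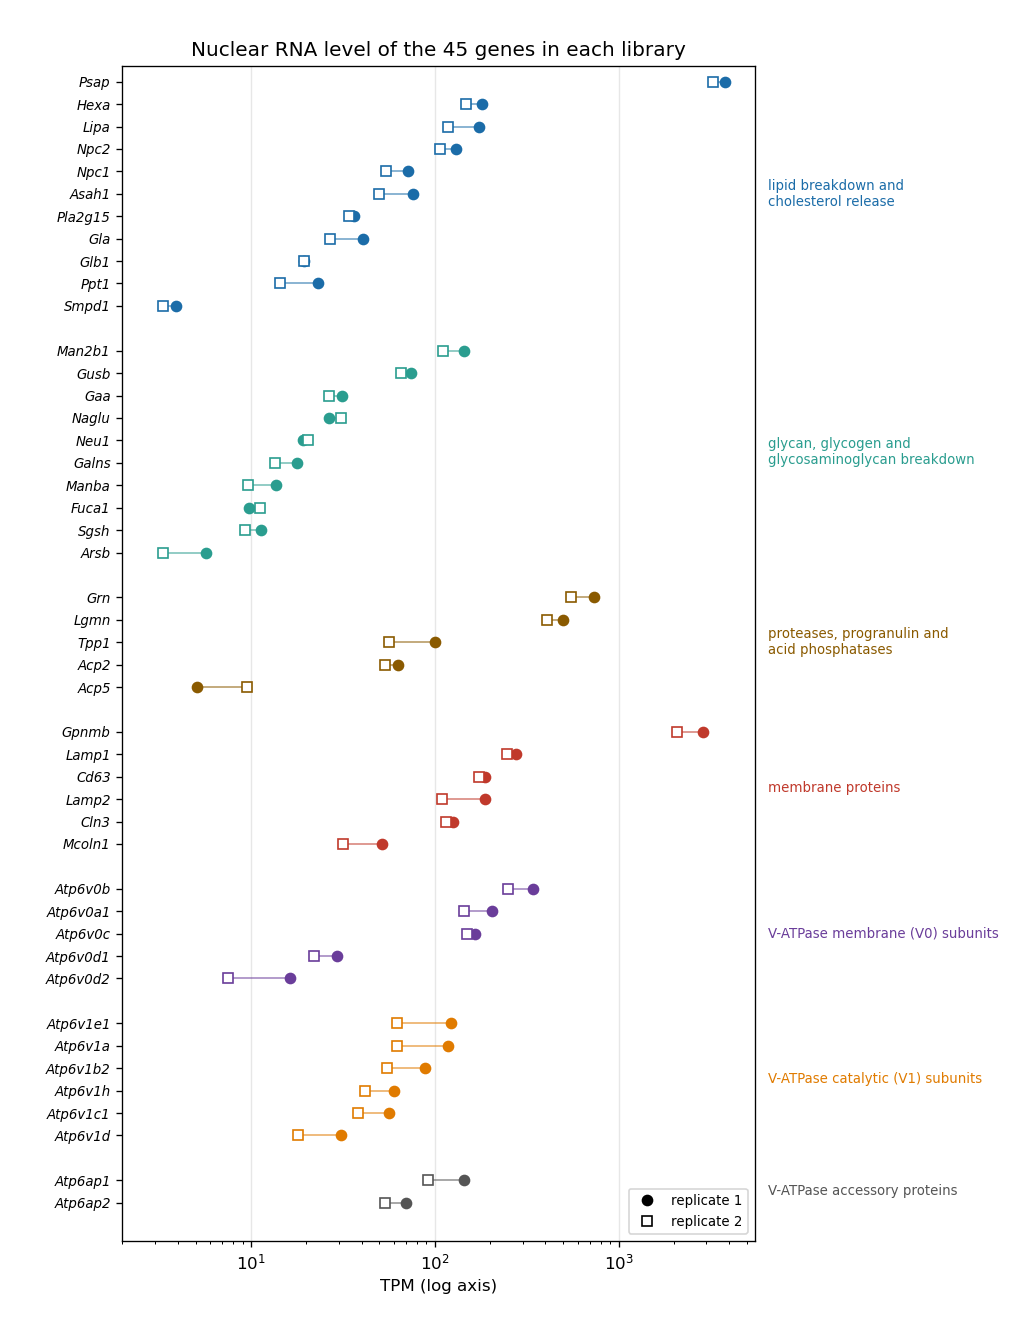
Level of each of the 45 genes in TPM (x axis, log scale) in replicate 1 (filled circles) and replicate 2 (open squares), grouped and coloured by role, with a line joining the libraries. Psap and Gpnmb lie at 2078 TPM or more, 4 genes (Acp5, Naglu, Neu1 and Fuca1) are higher in replicate 2, and Smpd1, Arsb and Acp5 are below 10 TPM in both libraries.

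The 13 V-ATPase genes ranged in mean level from 11.9 TPM for Atp6v0d2 to 296 TPM for Atp6v0b. These are RNA levels and say nothing of how many copies of a subunit the pump holds. Atp6v0b and Atp6v0c encode the proteolipids of the rotating ring; they had 344 and 166 TPM in replicate 1 and 249 and 150 TPM in replicate 2. Atp6v0a1, a form of the large a subunit, had 205 and 144 TPM. Atp6v0d1 and Atp6v0d2 encode alternative forms of the d subunit, which joins ring and rotor. Atp6v0d1 had 29.4 and 22.0 TPM, and Atp6v0d2 had 16.3 and 7.49 TPM, so the second was the lower in both libraries.

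In the V1 sector, Atp6v1e1, a stalk subunit, had 123 TPM in replicate 1 and 61.9 TPM in replicate 2. Atp6v1a, the catalytic A subunit, had 118 and 62.6 TPM, and Atp6v1b2, the B subunit that forms the head with it, had 87.9 and 55.0 TPM. These 3 levels overlapped over the libraries. Atp6v1h, the H subunit that controls the pump, had a mean of 50.6 TPM. Atp6v1c1, the C subunit whose release accompanies sector disassembly, had 56.5 and 38.2 TPM, and Atp6v1d, the central rotor subunit, had 31.0 and 17.9 TPM. The accessory genes Atp6ap1 and Atp6ap2, whose products help to assemble the pump, had 144 and 69.8 TPM in replicate 1 and 92.4 and 53.7 TPM in replicate 2.

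Several subunits have more than 1 gene, and the macrophage libraries used mostly 1 of them, with the a and d subunits as exceptions. For the a subunit, Tcirg1, the a3 form, is not among the 45 genes but was the most abundant, with 472 TPM in replicate 1 and 409 TPM in replicate 2. Tcirg1 held 69.4% and 73.6% of the TPM of the 4 a genes, Atp6v0a1 held 30.1% and 26.0%, Atp6v0a2 had 3.31 and 2.32 TPM, and Atp6v0a4 had 0 counts. Atp6v0d1 held 64.4% of the d subunit's TPM in replicate 1 and 74.6% in replicate 2, the remainder being Atp6v0d2, a form known from osteoclasts and macrophages. By expected counts the d genes were close to even in replicate 1, with 422 for Atp6v0d1 and 424 for Atp6v0d2, because TPM divides by transcript length. Atp6v1b1, the kidney form of the B subunit, had 1 count in each library beside 1790 and 3291 counts of Atp6v1b2. Atp6v1c2 had 0 and 1 counts, and Atp6v1e2 had 0 in both. For the G subunit, Atp6v1g1 held 92.4% and 94.3%, Atp6v1g2 held 7.56% and 5.73%, and Atp6v1g3 had 0 counts. The e subunit depended on the quantification: Atp6v0e2 had 0 expected counts in both libraries, but in the other deposited quantification it held 14.1% and 3.50% of the TPM of the 2 e genes.

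**Figure D3:**
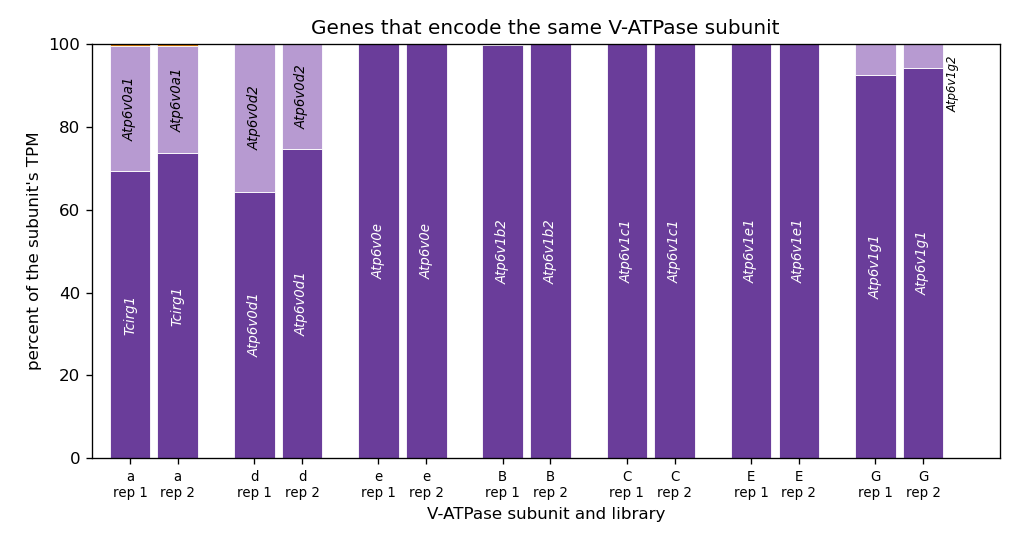
Percent of the TPM of each V-ATPase subunit (y axis, 0 to 100) held by each gene that encodes it, in replicate 1 and replicate 2 (x axis, subunits a, d, e, B, C, E and G). The a subunit is shared by Tcirg1 and Atp6v0a1 and the d subunit by Atp6v0d1 and Atp6v0d2, while a single gene fills nearly the whole bar for the others.

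The transcript estimates divide the leading gene, Psap, among its isoforms. Psap lies at chr10:60277627-60302597 on the plus strand (mm10) and has 5 annotated isoforms, all protein-coding. A short alternative stretch in the part that codes for saposin B sets Psap-201, Psap-204 and Psap-205 apart from each other and from Psap-202 and Psap-203, which lack it. The coding sequence around it is printed with the extra bases in capitals.
Psap-202: ttgatgcacatgcaacccaaggaa
Psap-201: ttgatgcacatgCTTCAGcaacccaaggaa
Psap-204: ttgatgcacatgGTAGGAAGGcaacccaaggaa
Psap-205: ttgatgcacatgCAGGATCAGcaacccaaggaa

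Isoforms 202 and 203, which have 0 extra bases, held 96.8% of Psap's TPM in replicate 1 and 97.1% in replicate 2. The 3 isoforms with 6 or 9 extra bases held 3.21% and 2.93%. In the other quantification the isoforms without the extra bases held 94.9% and 93.3%, so both quantifications put most Psap RNA in the shorter form. The extra 9 bases of Psap-205 lie at chr10:60297537-60297545 and the extra 6 bases of Psap-201 at chr10:60299092-60299097. Isoforms 202 and 203 differ in their first exon, at chr10:60277627-60277782 for 202 and at chr10:60284461-60284531 for 203, with coding lengths of 1662 and 1653 bases. Psap-202 held 47.3% and 48.2% of the gene's TPM and Psap-203 held 49.5% and 48.8%. The other quantification gave 46.7% and 53.7% for Psap-202 and 48.2% and 39.5% for Psap-203. These are estimates for isoforms that share most of their sequence, and reads on either first exon were not counted, so the use of the starts was not measured directly. The 250 bases before each start, from RefSeq, are printed because the estimates divide the gene between them, with the AP-1 letters TGAGTCA of the first in capitals.
Psap first start, chr10:60277378-60277627, plus strand: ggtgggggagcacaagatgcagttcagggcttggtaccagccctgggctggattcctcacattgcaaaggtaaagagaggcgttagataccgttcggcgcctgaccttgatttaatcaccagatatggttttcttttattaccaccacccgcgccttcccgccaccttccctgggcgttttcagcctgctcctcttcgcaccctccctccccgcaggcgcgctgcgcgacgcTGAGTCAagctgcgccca
Psap second start, chr10:60284211-60284460, plus strand: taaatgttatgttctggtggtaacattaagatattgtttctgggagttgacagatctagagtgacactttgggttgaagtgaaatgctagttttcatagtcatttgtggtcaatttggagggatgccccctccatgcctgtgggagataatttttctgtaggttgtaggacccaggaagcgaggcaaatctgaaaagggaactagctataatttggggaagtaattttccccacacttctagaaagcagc

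Lamp2 has 3 protein-coding isoforms that share the first 1108 coding bases and end in different last exons, which code for the transmembrane part and the short cytosolic tail. The tail decides the role: LAMP2A is the receptor of chaperone-mediated autophagy, and the B and C forms differ from it there. The last 39 coding bases are printed with capitals where the 3 sequences differ.
Lamp2-201, the A form: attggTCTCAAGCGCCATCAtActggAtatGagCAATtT
Lamp2-202, the B form: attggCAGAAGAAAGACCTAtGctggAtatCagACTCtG
Lamp2-203, the C form: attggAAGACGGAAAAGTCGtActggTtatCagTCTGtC

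The B form, Lamp2-202, held 47.8% of the gene's TPM in replicate 1 and 52.8% in replicate 2. The A form, Lamp2-201, held 28.8% and 28.1%, and the C form, Lamp2-203, held 0.506% and 0.888%. The order B, A, C was the same in the other quantification, where the A form held 29.8% and 31.9%. A processed transcript and a retained-intron isoform made up the remainder, 22.9% and 18.2%. The last coding exons lie on the X chromosome, minus strand, at chrX:38405435-38405571 for the A form, chrX:38421715-38421851 for the B form and chrX:38402142-38402281 for the C form.

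A nuclear fraction can hold RNA that is not fully spliced, and the annotation lists many isoforms outside the protein-coding class (retained intron, nonsense-mediated decay or processed transcript). The share of a gene's transcript TPM in such isoforms is called the noncoding isoform share below. The 45 genes have 255 isoforms, 134 of them of these classes, and 4 genes (Psap, Hexa, Gla and Atp6v0d2) have none. For the other 41 genes the median share was 23.0% in replicate 1 and 18.2% in replicate 2 (20.6 ± 3.43, mean ± SD, n = 2), beside 31.0% and 33.7% for the 7675 nuclear protein-coding genes with at least 1 such isoform and a mean of at least 1 TPM. In 3 of the 41 genes the share was at least 50% in both libraries, beside 21.0% of nuclear protein-coding genes. In 12 of 41 it was under 10% in both, beside 13.7%.

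Those 3 genes were Cln3, Atp6v1h and Atp6v1d. The share was 71.0% in replicate 1 and 65.1% in replicate 2 for Cln3, at chr7:126571207-126585817, where processed transcripts held 47.0% and 33.6%. It was 80.3% and 55.0% for Atp6v1h and 64.7% and 65.5% for Atp6v1d, in both cases mostly from retained-intron isoforms. For Atp6v1d this holds in TPM only, where short isoforms weigh more. By expected counts the protein-coding Atp6v1d-201 held 425 of 539 in replicate 1 and 730 of 924 in replicate 2. Most expected counts of Atp6v1h lay in retained-intron isoforms. The level of Atp6v1h in protein-coding isoforms alone was 11.7 TPM in replicate 1 and 18.7 TPM in replicate 2, against 59.7 and 41.6 TPM for the whole gene, so the order of the libraries was the opposite. In the other quantification Atp6v1h had 54.5% and 41.8%, while Cln3 and Atp6v1d were over 50% in both libraries. There the whole Atp6v1h gene had 52.5 and 12.7 TPM. Its protein-coding part was then also higher in replicate 1, so the opposite order was seen in 1 quantification only. That quantification put 10 of the 41 genes at 50% or more in both libraries, beside 37.2% of nuclear protein-coding genes.

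The roles differed in this share. The V1 subunits had the highest median, 45.3% in replicate 1 and 43.2% in replicate 2. Atp6v1a was the lowest of the 6 at 18.3% and 19.0%. The V0 subunits had 35.0% and 25.7%, the membrane proteins 25.4% and 18.9%, and the accessory genes 9.70% and 10.9%. The enzymes and carriers of the first 3 roles, the membrane protein Npc1 among them, had 16.3% and 9.61% over 23 such genes. Retained-intron isoforms were the largest noncoding class in 24 genes, processed transcripts in 10 and nonsense-mediated decay isoforms in 5, and in Pla2g15 and Acp5 the share was 0 in both libraries. In the other quantification it was 7.59% in replicate 1 and 5.86% in replicate 2 for Pla2g15, and 23.2% and 0% for Acp5. The noncoding isoform share was 50.4% and 37.0% for Npc2, which hands cholesterol to NPC1, and 43.6% and 42.7% for Neu1. The median over nuclear protein-coding genes was 31.0% and 33.7%. The counts of genes by largest class have no such background. The median retained-intron share was 7.65% and 5.44% over the 41 genes, beside 16.3% and 19.3% over nuclear protein-coding genes. The share was higher in replicate 1 in 25 of 41 genes, beside 41.1% of nuclear protein-coding genes.

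In some genes, picked after their values were seen, the split among isoforms differed strongly between the libraries. Asah1 had 38.3% in replicate 1 and 8.23% in replicate 2, of which Asah1-203, a retained-intron isoform, held 37.8% and 6.2%. Grn had 24.5% and 5.67%, of which Grn-208, a retained-intron isoform of 444 bases, held 20.3% and 1.1%. Gusb went the other way, with 16.3% and 42.8%, through nonsense-mediated decay isoforms that held 11.7% and 39.8%. For Lgmn it was the coding isoforms that changed places: Lgmn-202 held 70.8% and 43.3% and Lgmn-201 held 27.6% and 55.7%. For these 4 genes the isoform shares are therefore less certain than the gene level.

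**Figure D4:**
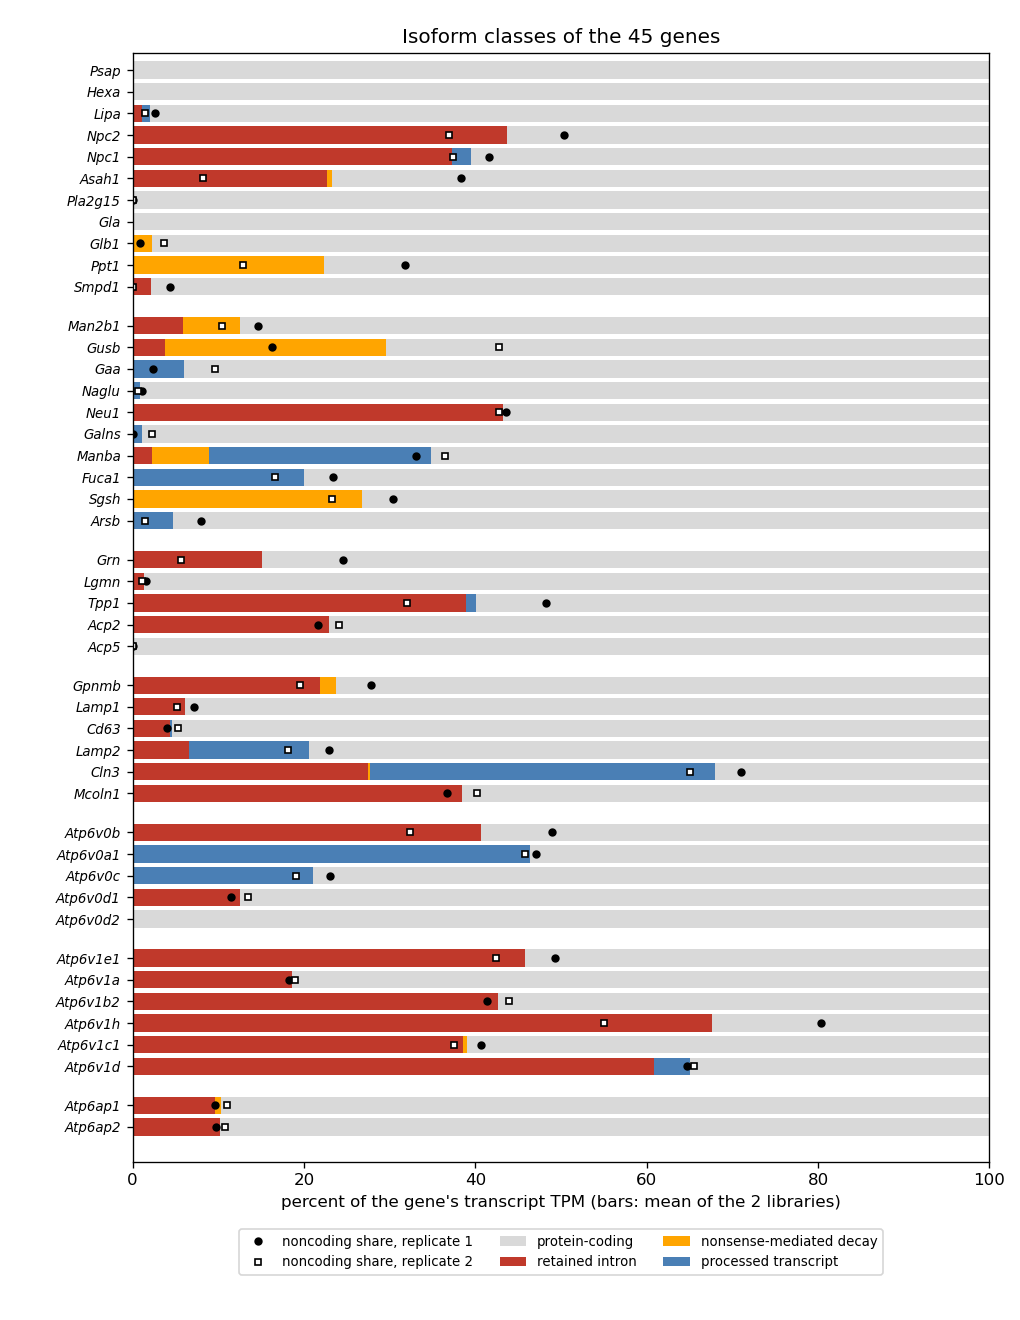
Percent of each gene's transcript TPM (x axis) in protein-coding (grey), retained-intron (red), nonsense-mediated decay (orange) and processed-transcript (blue) isoforms, as the mean of the 2 libraries; circles and squares give the noncoding isoform share of replicates 1 and 2. Cln3, Atp6v1h and Atp6v1d are over 50% in both libraries, and Psap, Hexa, Gla and Atp6v0d2 are grey throughout because they have no isoform of the other classes.

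The spread between the libraries was examined as log2 of TPM in replicate 2 over TPM in replicate 1, set to 0 at the median of nuclear protein-coding genes with a mean of at least 1 TPM. At that median the ratio was -0.66, or 0.632-fold, before centring, so a gene of equal TPM in both libraries lies at a positive value. Over 2-fold from the median was 1 of the 45 genes, Acp5, beside 6.56% of nuclear protein-coding genes in either direction and 3.71% in the direction higher in replicate 2. Within 1.5-fold of the median were 40 of 45 genes, beside 76.9%. Above the median were 35 of 45 genes, beside 50.0%, and the median of the 45 was 0.26. The same side held 8 of 10 cathepsins with a mean of at least 1 TPM (median 0.48), 8 of 10 macrophage markers (0.44), 11 of 15 further hydrolases and activators (0.32) and 11 of 14 further lysosomal membrane proteins (0.20). Of the other V-ATPase subunits 4 of 8 lay above it (0.07), of the sorting receptors 6 of 9 (0.26) and of the MiT/TFE factors and their control 10 of 16 (0.12). Among genes with a mean of at least 10 TPM, an alternative added after seeing the data, 33 of 42 genes were above it, beside 49.4%, and 0 of 42 over 2-fold from it, beside 2.19%. The genes share their 2 libraries, so these counts describe 1 pair of libraries.

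By role, the median of this log2 ratio was 0.36 for lipid breakdown, 0.40 for sugar breakdown, 0.38 for the proteases, progranulin and phosphatases, 0.35 for membrane proteins, 0.19 for V0, -0.07 for V1 and 0.16 for the accessory genes. Of the 26 soluble enzymes and carriers, 23 lay above 0, and of the 13 V-ATPase genes 8 did, whereas 4 of the 6 V1 genes lay below 0. The role with the highest noncoding isoform share was thus the one with the lowest ratio. The roles did not all follow this order. The accessory genes had a share of 9.70% and 10.9% and a ratio of 0.16, and V0 had 35.0% and 25.7% and a ratio of 0.19. Across the 41 genes the rank correlation (Spearman's rho) of the mean noncoding isoform share with the log2 ratio was -0.39, beside -0.04 across 7675 nuclear protein-coding genes. Both measures come from the same 2 libraries and genes are not independent replicates, so it is a description. The highest log2 ratios after Acp5 were those of Naglu (0.87) and Fuca1 (0.85), and the lowest was that of Atp6v0d2 (-0.46).

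Acp5 had 65 expected counts in replicate 1, with an interval of 50.2 to 82.8, and 381 in replicate 2, with an interval of 344 to 421, and its log2 ratio was 1.57. In the other quantification this ratio was 0.99, just inside the 2-fold limit. Acp5, Atp6v0d2 and Gpnmb are also known as genes of osteoclasts, the bone-resorbing relatives of macrophages, so osteoclast markers are given beside them. Of 8 such markers, Nfatc1 (7.33 and 5.36 TPM) and Itgb3 (6.21 and 3.29 TPM) reached 1 TPM in both libraries. Ctsk had 0.55 TPM in replicate 1 and 1.11 TPM in replicate 2, Dcstamp 0.39 and 0.99 TPM, Ocstamp 0.08 and 0.06 TPM, Calcr and Oscar 1 and 0 counts each, and Mmp9 0 and 14 counts. The summed TPM of the 8 markers was 14.7 and 11.0. In TPM, Ctsk, Dcstamp and Mmp9 were thus higher in replicate 2 and the other 5 markers lower, and of the 3 lysosomal genes Acp5 was higher and Atp6v0d2 and Gpnmb lower. The directions depend on the scale, as the median nuclear protein-coding gene was itself lower in replicate 2. On the centred log2 ratio Nfatc1 (0.21), Ocstamp (0.25) and Gpnmb (0.19) lay above 0, whereas Itgb3 (-0.25) and Atp6v0d2 (-0.46) stayed below it. The part of such cells in these values was not tested.

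**Figure D5:**
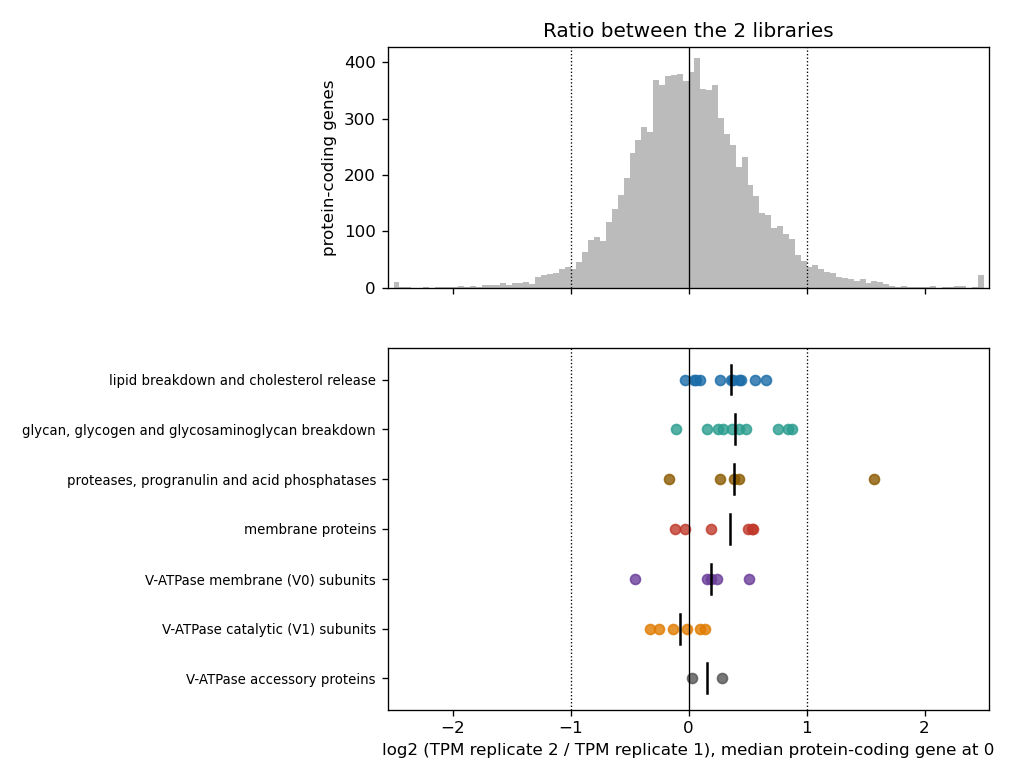
Log2 of TPM in replicate 2 over TPM in replicate 1, set to 0 at the median nuclear protein-coding gene (x axis, values beyond 2.5 drawn at the edge), for all nuclear protein-coding genes with a mean of at least 1 TPM (upper panel, number of genes) and for the 45 genes by role (lower panel, 1 point per gene, bar at the median, dotted lines at 2-fold). Most points lie right of 0 except those of the V1 subunits, and Acp5 at 1.57 is the 1 gene outside the dotted lines.

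The labelled cell type was checked against its markers. All 10 macrophage markers reached 10 TPM in both libraries, led by Lyz2 (1461 and 1507 TPM). Of 37 markers of other marrow cells, 3 reached 1 TPM in both libraries (Kdr, Ltf and S100a8) and 14 had 0 counts in both, and their summed TPM was 12.9 in replicate 1 and 10.8 in replicate 2.

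The other genes of the pathway came from fixed lists of known members. All 15 further hydrolases and activators reached 1 TPM in both libraries. Glmp, which is on this list but encodes a membrane protein and not a hydrolase, had 58.1 and 50.7 TPM. The lowest was Ids with 6.03 and 2.53 TPM. Of 14 cathepsins, the main lysosomal proteases, 10 did, led by Ctsb (1877 and 1408 TPM) and Ctsd (1320 and 1177 TPM), and Ctsg had 1 count in each library. Of 15 further membrane proteins 14 did, led by Laptm5 and Cd68 with means of 212 and 202 TPM, and Lamp3 had 0 counts. All 9 sorting genes did, led by M6pr, the cation-dependent mannose 6-phosphate receptor, with 74.5 and 46.2 TPM, and Ap3d1 with 39.1 and 29.6 TPM, and the lowest was Gga2.

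The 16 genes of the MiT/TFE factors and their control by the mTORC1 pathway all reached 1 TPM in both libraries. Tfec, a member of the factor family found in macrophages, was the highest with 533 TPM in replicate 1 and 225 TPM in replicate 2, followed by Lamtor3 (71.4 and 35.4 TPM), and Lamtor4 was the lowest with 2.38 and 2.34 TPM. The 3 factors named above for their part in lysosomal gene control were lower than Tfec: Mitf had 27.6 and 18.6 TPM, Tfe3 had 25.0 and 18.9 TPM, and Tfeb had 3.83 and 4.01 TPM. These are RNA levels, whereas the activity of the factors is set largely by their entry into the nucleus as proteins.

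Reads from overlapping genes could be split between them, and the strand setting of the counting is not given in the sources used here. Another gene overlaps 18 of the 45, and in 5 cases it had at least 10% of the counts of the lysosomal gene in 1 or both libraries. Cln3 and the opposite gene Apobr share 876 bases, and Apobr had 2111 and 4987 counts beside 1236 and 3590 for Cln3. Ppt1 shares 129 bases with Cap1, Galns shares 33222 bases with Gm20388 on the opposite strand, Atp6v1e1 shares 32 bases with Slc25a18, and Glb1 lies over Tmppe on the same strand for 6172 bases. The levels of these 5 genes, and the isoform shares of Cln3 in particular, are uncertain to that extent. For 34 of the 45 genes the expected counts were whole numbers in both libraries (within 0.005), and for 11, Cln3, Ppt1 and Glb1 among them, they were not.

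The 2 deposited quantifications were compared for each gene relative to the median nuclear protein-coding gene, where the other quantification was lower by 0.32 in replicate 1 and by 1.73 in replicate 2 on the log2 scale. In 0 of the 45 genes were they more than 2-fold apart in one direction in both libraries, beside 4.88% of nuclear protein-coding genes. Manba differed most, with 40.4 TPM in replicate 1 and 4.20 TPM in replicate 2 in the other quantification, against 13.7 and 9.62 TPM. By mean TPM the 5 most abundant of the 45 genes were Psap, Gpnmb, Grn, Lgmn and Atp6v0b in both quantifications. In the other quantification Gpnmb was ahead of Psap by mean and in replicate 1 (2447 against 2138 TPM). In replicate 2 of that quantification Psap was ahead (712 against 551 TPM).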

How the data were processed

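Ribosomal RNA-depleted nuclear RNA was sequenced from 2 libraries of 1 group. The deposited gene and transcript tables give expected counts and TPM, laid out like RSEM output per the file headers, and a further table gives estimated counts and TPM per transcript, laid out like kallisto output. The authors' readme files name genome mm10 and annotation M21; software versions, strand and filtering were not stated in what was used here. TPM depends on effective length, so reads on very short RNAs lower every other TPM. Of 81881 rows, 26345 name no annotated gene; with them the expected counts totalled 10395300 and 20515408, and without them 10342882 and 20495545. The other quantification held 19734726 and 28995544 estimated counts. Intervals of counts are exact Poisson at 95%.

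Replicate ratios are log2 TPM ratios centred on nuclear protein-coding genes with a mean of at least 1 TPM. With 1 group, nothing was tested. Per role the 3 highest and 2 lowest genes by mean TPM were named with both libraries, as were each gene over 2-fold from the median ratio, with a noncoding share of 50% or more in both libraries or over 2-fold apart between quantifications, and all paralog subunits. From other lists the highest 2 and the lowest were named, except for 1 gene that is not reported here, and genes beyond this were chosen after their values were seen. The members and lists were chosen with earlier results of these data known. Alternatives were the other quantification, rescaled TPM, CPM, edgeR 4.0.16 TMM scaling of rounded expected counts (R 4.3.3), a pseudocount of 1 TPM, other filters and each library left out. The TMM and median-centring calculations were run on simulated Poisson counts with known folds and no added spread between replicates. That run checks the calculation on counts and not the TPM ratios given here. Python 3.11.15 and pandas 2.3.3 were used.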

Additional observations from a re-analysis of the deposited data

How the results depend on the processing

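All 45 genes reached 1 TPM in both libraries also with rescaled TPM, with CPM and in each library alone, and 43 did in the other quantification. Their median level was 33.6 TPM in the other quantification (4.51 TPM for expressed nuclear protein-coding genes), 294 with TPM rescaled over nuclear protein-coding genes and 180.2 in CPM of expected counts (18.7), and in each library alone it was 53.7 to 71.6 TPM. Their median log2 replicate ratio was 0.38 with TMM scaling and 0.16 with a pseudocount of 1 TPM, and 0.27 in the other quantification. With TMM scaling the ratios were not centred again, and the median of nuclear protein-coding genes was 0.04. There 2 genes, Fuca1 and Acp5, were over 2-fold from 0, beside 4.81% of nuclear protein-coding genes. In the other quantification 1 gene was over 2-fold from the median, Manba in place of Acp5 (0.99), beside 4.89%. Among genes with a mean of at least 10 TPM, which leaves Acp5 out, it was 0, beside 2.19%. The median noncoding isoform share was 31.6% in the other quantification (45.4% for nuclear protein-coding genes) and 12.9% as a share of expected counts (16.3%), where long isoforms weigh more. In each library alone it was 18.2% to 23.0%. In every setting run the members' median share was below that of nuclear protein-coding genes and their median ratio was positive. No paired analysis was possible because there is 1 group. Counting error is widest in relative terms for Acp5 and Smpd1, the genes with the smallest counts in replicate 1 (65 and 96).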
